A study of Homo sapiens with 16 samples.

Results

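The genes described here are 10 readouts of the unfolded protein response and the integrated stress response, namely ATF4, DDIT3, TRIB3, CHAC1, ASNS, PPP1R15A, HSPA5, DNAJB9, HERPUD1 and XBP1. They were taken as a list of symbols and were found by Ensembl identifier among the 60649 genes of the deposited count table. The filter on low counts kept 19103 genes, and 10 of the 10 stress response genes were among them.

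Poly(A) RNA was sequenced from 16 libraries of ASC52telo, an adipose-derived mesenchymal stem cell (MSC) line immortalized with telomerase, and the question was how the cytokine GDF11 alters the transcriptome of young and senescent MSCs. The 4 groups had 4 libraries each. Cells of MmC-/GDF11- received neither agent and are called young, and those of MmC-/GDF11+ received GDF11 at 10 ng/mL alone. Cells of MmC+/GDF11- were exposed for 18 h to mitomycin C (MmC), a DNA alkylating agent, at 1.5 µg/mL and are called senescent, and those of MmC+/GDF11+ received the same MmC exposure and then GDF11 at 10 ng/mL. All cells were collected 10 days after the time of MmC exposure, and the batch tag of the labels is the same run for all 16 libraries. The study names batch effects among its limits without saying which libraries they touch. Controls and treated cells were the same single line, so that no donor was replicated. The replicates are called biological, but the sources used here do not say whether they were separate cultures, and p-values therefore measure the spread between these libraries.

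When unfolded proteins collect in the endoplasmic reticulum (ER), the sensors PERK, IRE1 and ATF6 raise chaperones and degradation enzymes and slow protein synthesis. PERK is also a kinase of the translation factor eIF2α, as are the sensors of amino acid shortage, double-stranded RNA and heme shortage, and phosphorylated eIF2α favours translation of the transcription factor ATF4. ATF4 and its target CHOP, the product of DDIT3, then switch on genes of amino acid supply, redox defence and cell death. ATF4 is controlled mainly through its translation and XBP1 through splicing by IRE1, and counts per gene show neither step.

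The libraries held 71275337 to 144204979 counts each. Levels are given as CPM, the counts of a gene relative to the library size, after TMM scaling, which corrects library sizes for differences in composition, and changes as log2 fold changes with a standard error (SE). The quasi-likelihood test of edgeR was used, and a gene was called changed where the p-value, adjusted by Benjamini-Hochberg over the 19103 genes, was under 0.05. Libraries of the same group differed by more than sampling noise, and none was counted as a copy of another. Over genes averaging 500 or more counts, their typical squared difference was 15.3 to 137 times that of counting alone in 24 pairs. In 96 pairs of different groups it was 4.52 to 385 times, so that the closest of these were more alike than any pair of the same group. The 5 MSC surface markers NT5E, THY1, ENG, CD44 and ITGB1 were abundant in every library, and their summed level was 4735 to 5609 CPM in the MmC- groups and 5531 to 6428 CPM in the MmC+ groups. The summed level of 10 markers of other cell types was 81.5 to 130 CPM in the MmC- groups and 66.4 to 80.2 CPM in the MmC+ groups. KRT8 had the highest median of them, ADIPOQ had a median of 0 CPM, and EPCAM, LYZ and MS4A1 did not exceed 0.0583, 0.210 and 0.122 CPM. The first sum overlapped between these groups and was higher on the whole after MmC, the second was lower in every MmC+ library. Of the 5 MSC markers, 2 were called higher and 0 lower after MmC without GDF11, and 3 higher and 0 lower with it. THY1 was not called, with log2 fold changes of -0.58 without and -0.43 with GDF11. Of the 10 other markers 6 were tested, and they did not move 1 way. KRT8 and CDH5 were called lower after MmC without GDF11 (log2 fold change -1.04 and -1.51) and PECAM1 and CD14 higher (1.27 and 0.79), and with GDF11 PTPRC was called higher as well (0.90), for 2 higher and 2 lower without and 3 higher and 2 lower with GDF11. The part of these markers in the results below was not tested. In bulk RNA a smaller share of cells that express a gene and less of its RNA per cell cannot be told apart.

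Promoter sequence is shown first because the stress response genes are known by the elements that ATF6, XBP1, ATF4 and C/EBP proteins bind. Windows from 250 bases before to 50 bases after each start were taken from RefSeq (GRCh38.p14), where 10 of 10 genes had at least 1 window. Exact letters of 5 elements were searched on both strands: the ER stress element ERSE (CCAAT, then 9 bases, then CCACG), ERSE-II (ATTGG, then 1 base, then CCACG), UPRE (TGACGTGG), the C/EBP-ATF response element (TGATGNAA) and CRE (TGACGTCA). ERSE and ERSE-II share the letters CCACG, and UPRE and CRE share their opening letters. A match was found for 6 of the 10 genes. The stretches holding them are printed 5′ to 3′ on the strand of the gene, in lower case with the matched letters in capitals, and positions are counted from the start site.
HSPA5, chr9:125241383-125241593, minus strand: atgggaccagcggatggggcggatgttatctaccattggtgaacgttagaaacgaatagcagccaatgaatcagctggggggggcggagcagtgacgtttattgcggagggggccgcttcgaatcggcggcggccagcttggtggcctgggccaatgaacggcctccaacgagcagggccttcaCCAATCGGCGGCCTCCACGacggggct
XBP1, chr22:28800598-28800819, minus strand: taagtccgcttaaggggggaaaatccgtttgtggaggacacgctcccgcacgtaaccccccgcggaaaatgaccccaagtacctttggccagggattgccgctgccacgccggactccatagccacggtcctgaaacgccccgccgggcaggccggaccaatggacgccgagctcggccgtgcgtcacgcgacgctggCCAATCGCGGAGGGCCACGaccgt
HERPUD1, chr16:56931892-56932141, plus strand: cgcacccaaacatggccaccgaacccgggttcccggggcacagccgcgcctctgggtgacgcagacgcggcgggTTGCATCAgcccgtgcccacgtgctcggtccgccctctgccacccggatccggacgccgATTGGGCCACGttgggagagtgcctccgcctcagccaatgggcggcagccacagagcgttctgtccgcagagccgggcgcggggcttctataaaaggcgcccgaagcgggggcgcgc
ASNS, chr7:97872458-97872487, minus strand: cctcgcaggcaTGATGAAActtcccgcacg
CHAC1, chr15:40953251-40953280, plus strand: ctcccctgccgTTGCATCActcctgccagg
PPP1R15A, chr19:48872352-48872381, plus strand: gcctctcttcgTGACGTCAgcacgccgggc

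The capitals mark an ERSE at -66 to -48 of HSPA5 and at -52 to -34 of XBP1, an element found in 0.0769% of the 35116 RefSeq windows. HERPUD1 held an ERSE-II at -117 to -107, found in 0.0541% of windows, and a C/EBP-ATF element on the opposite strand at -176 to -169. The C/EBP-ATF element was also matched in ASNS at -68 to -61 and, on the opposite strand, in CHAC1 at -209 to -202, and 3.62% of windows held it. PPP1R15A held a CRE at -58 to -51, as did 1.85% of windows. Positions refer to the RefSeq start of each window. For ASNS, CHAC1 and PPP1R15A the printed stretches lie inside the gene spans given below, which begin farther upstream than that start. UPRE, found in 0.729% of windows, was matched in none of the 10 genes. ATF4, DDIT3, TRIB3 and DNAJB9 had no match to any of the 5 elements in these windows, which says only that these exact letters are not there.

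Per kilobase of exonic sequence, levels averaged over the 16 libraries ran from 185 ± 31.3 CPM per kb (SD) for HSPA5 to 0.211 ± 0.0806 for ASNS. ATF4 followed HSPA5 at 141 ± 18.1 CPM per kb, then XBP1 at 62.9 ± 11.2, PPP1R15A at 46.2 ± 23.1 and DDIT3 at 32.4 ± 20.2. TRIB3 (18.1 ± 9.91), HERPUD1 (18.0 ± 1.99) and DNAJB9 (15.8 ± 9.17 CPM per kb) came next. Of the neighbours in this order, PPP1R15A and DDIT3, and TRIB3 and HERPUD1, differed by less than the SD of either gene. XBP1 and PPP1R15A, DDIT3 and TRIB3, and HERPUD1 and DNAJB9 differed by less than the wider SD of the pair only. CHAC1 stood at 5.98 ± 1.55 CPM per kb. The SDs span all 4 groups and so include the differences between them. ASNS rested on 48 to 173 counts per library, the fewest of the 10, and CHAC1 on 717 to 1833.

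MmC raised a subset of the stress response genes, and GDF11 changed none of them by the test. Without GDF11, 6 of the 10 genes were called higher after MmC (DDIT3, TRIB3, ASNS, PPP1R15A, HSPA5 and DNAJB9) and 0 lower. With GDF11 5 were called higher (the same without ASNS) and 0 lower. Over all 19103 genes, 45.3% were called without GDF11 (22.9% higher and 22.4% lower) and 46.7% with GDF11 (23.4% higher and 23.3% lower), so that a share of 6 or 5 in 10 is close to the share of all genes called, whereas the calls of the 10 genes all pointed 1 way. The median log2 fold change of the 10 genes was 0.61 without GDF11 and 0.43 with GDF11, against -0.01 over all genes in both comparisons. The 10 genes were chosen with earlier results of these data known. They also mostly varied in the same direction within groups, so that their shared direction is not a set of separate observations. The 4 treated and 4 untreated libraries did not overlap for 4 of the 10 genes in each comparison (DDIT3, PPP1R15A, HSPA5 and DNAJB9), beside 37.3% and 41.5% of all genes.

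**Figure D1:**
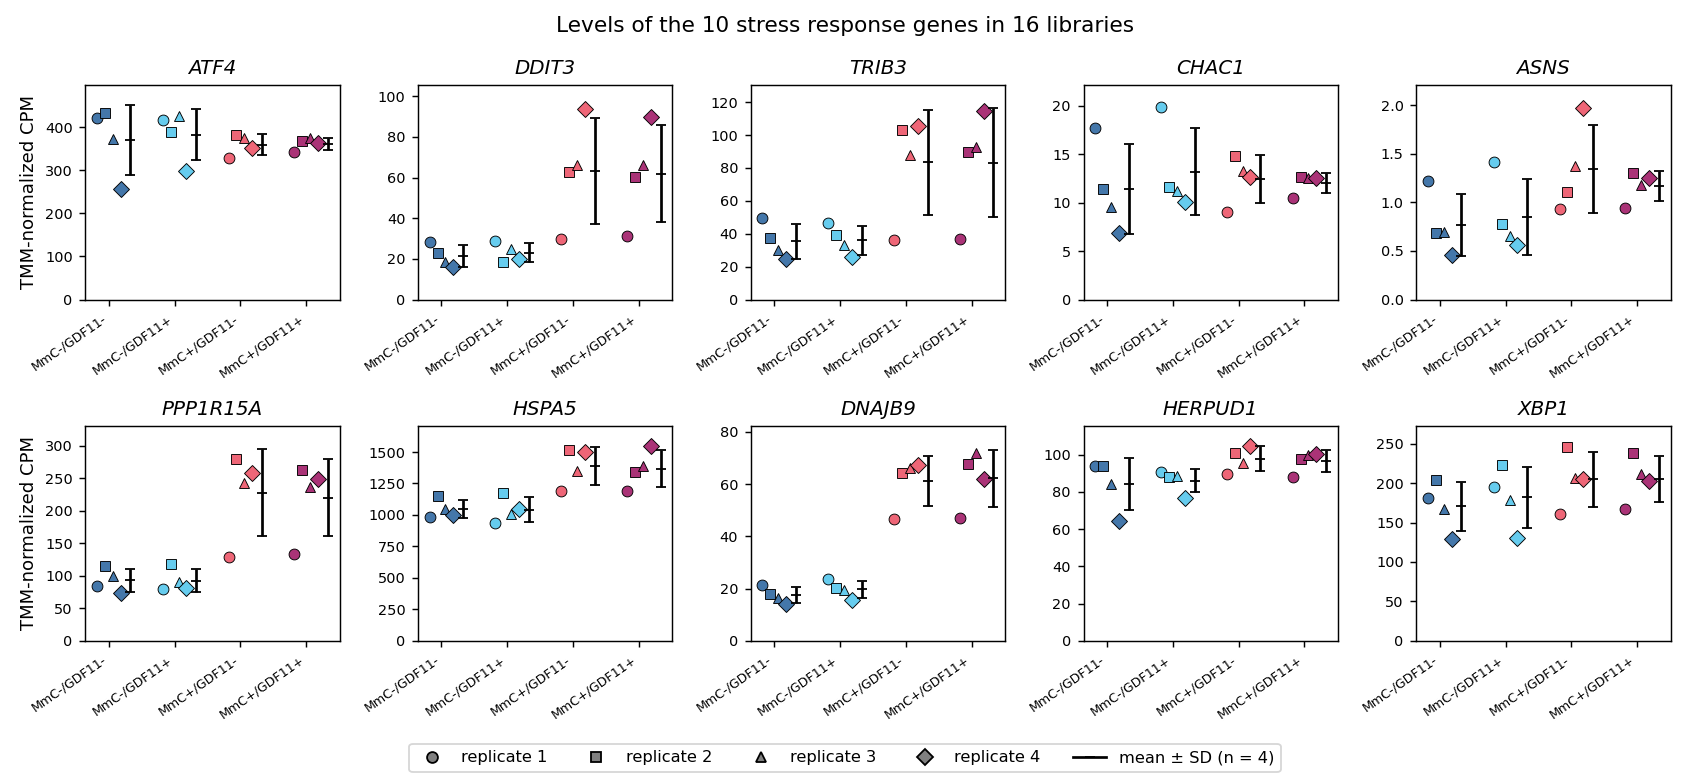
TMM-scaled CPM (linear axes from 0) of the 10 genes in each of the 16 libraries, by group on the horizontal axis; symbols mark the replicate number and bars the mean ± SD of 4 libraries. DNAJB9 runs from 14.2 to 23.8 CPM in the MmC- libraries and from 46.8 to 72.1 in the MmC+ libraries, while the ATF4 groups overlap, and the circle of replicate 1 is the lowest of its group in every MmC+ group.

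ATF4 (ENSG00000128272.17, chr22:39519695-39522683, plus strand), the transcription factor at the head of the integrated stress response, had 421, 433, 373 and 256 CPM in the young group MmC-/GDF11-, in the order of the replicate numbers, as throughout. In MmC+/GDF11- it had 328, 381, 376 and 351 CPM. The senescent libraries all lay inside the range of the young ones. The log2 fold change was -0.05 (SE 0.144, edgeR adjusted p = 0.819), and its 95% interval ran from 0.784-fold to 1.20-fold. With GDF11 the levels were 418, 389, 426 and 298 CPM in MmC-/GDF11+ and 342, 367, 375 and 362 CPM in MmC+/GDF11+, a log2 fold change of -0.08 (SE 0.144, edgeR adjusted p = 0.669). The groups overlapped again. Of the words of 31 bases in ATF4's exons, 30.3% also occur elsewhere on the main chromosomes, and how reads with several places were counted is not given in the sources used here.

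DDIT3 (ENSG00000175197.13, chr12:57516588-57521737, minus strand) encodes CHOP, the factor that links prolonged stress to cell death. Its levels were 28.1, 23.0, 18.4 and 15.9 CPM in MmC-/GDF11- and 29.8, 62.9, 66.1 and 93.9 CPM in MmC+/GDF11-. The groups did not overlap, but replicate 1 of the senescent group lay only just above replicate 1 of the young group, whereas replicate 4 was the lowest of the young and the highest of the senescent libraries. The group means were 21.4 ± 5.40 and 63.2 ± 26.2 CPM (SD, n = 4), giving a log2 fold change of 1.56 (SE 0.331, edgeR adjusted p = 0.00140), or 2.96-fold with a 95% interval of 1.81 to 4.82. With GDF11 the 4 libraries had 28.7, 18.3, 25.1 and 19.9 CPM without MmC and 31.4, 60.4, 66.4 and 89.6 CPM after it. These did not overlap either, and the log2 fold change was 1.43 (SE 0.330, edgeR adjusted p = 0.00251). The genes MARS1 and MBD6 cover 31.6% of DDIT3's exonic bases on the other strand. The kit keeps the strand, but the strand setting of the counting is not given in the sources used here.

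TRIB3 (ENSG00000101255.12, chr20:362835-397559, plus strand), a pseudokinase induced by ATF4 and CHOP that dampens ATF4 activity, had 49.6, 37.3, 30.1 and 24.8 CPM in MmC-/GDF11-. In MmC+/GDF11- it had 36.5, 103, 88.1 and 106 CPM. Replicates 2 to 4 of the senescent group lay above every young library, and replicate 1 lay below the young replicates 1 and 2. The log2 fold change was 1.23 (SE 0.354, edgeR adjusted p = 0.0104). With GDF11 the levels were 46.4, 39.1, 33.1 and 25.8 CPM in MmC-/GDF11+ and 36.8, 89.5, 92.5 and 114 CPM in MmC+/GDF11+, with the same overlap through replicate 1 and a log2 fold change of 1.21 (SE 0.354, edgeR adjusted p = 0.0116). Both calls depended on which replicate number was in the fit. Without GDF11, leaving replicate 2, 3 or 4 out of every group gave log2 fold changes of 1.14, 1.14 and 0.97 with edgeR adjusted p values of 0.0815, 0.0849 and 0.0824. With GDF11 they were 1.21, 1.13 and 0.91, with edgeR adjusted p values of 0.0642, 0.0886 and 0.101. Leaving out replicate 1 gave 1.69 and 1.60 (edgeR adjusted p = 1.42e-06 and 2.39e-06).

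PPP1R15A (ENSG00000087074.8, chr19:48872212-48876059, plus strand) encodes GADD34, the phosphatase subunit that reverses eIF2α phosphorylation. Its levels were 84.8, 115, 99.0 and 73.9 CPM in MmC-/GDF11- and 130, 279, 243 and 259 CPM in MmC+/GDF11-. Every senescent library lay above every young one. The means were 93.0 ± 17.6 and 228 ± 67.0 CPM (SD, n = 4), or a log2 fold change of 1.29 (SE 0.243, edgeR adjusted p = 0.000533). In the GDF11 arms the 4 libraries had 80.1, 119, 90.1 and 81.8 CPM without MmC and 134, 263, 236 and 249 CPM after it. These did not overlap, and the log2 fold change was 1.25 (SE 0.243, edgeR adjusted p = 0.000674).

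CHAC1 (ENSG00000128965.13, chr15:40952962-40956512, plus strand), which degrades glutathione, and ASNS, which makes asparagine, are ATF4 targets of the amino acid and redox branch. CHAC1 had 17.7, 11.4, 9.58 and 6.91 CPM in MmC-/GDF11- and 9.03, 14.9, 13.2 and 12.6 CPM in MmC+/GDF11-. Replicate 1 was the highest young and the lowest senescent library, and the groups overlapped. The log2 fold change was 0.13 (SE 0.255, edgeR adjusted p = 0.715) and, with GDF11, -0.13 (SE 0.255, edgeR adjusted p = 0.703) over 19.9, 11.6, 11.2 and 10.1 CPM in MmC-/GDF11+ and 10.5, 12.6, 12.5 and 12.6 CPM in MmC+/GDF11+. Without replicate 1 of every group CHAC1 was called higher after MmC in the absence of GDF11, by a log2 fold change of 0.55 (edgeR adjusted p = 0.00594), and with GDF11 the value was 0.20 (edgeR adjusted p = 0.271). Leaving out replicate 2, 3 or 4 instead gave 0.03, 0.03 and -0.05 in the absence of GDF11 (edgeR adjusted p = 0.956, 0.956 and 0.911). In its presence these were -0.21, -0.20 and -0.24, and none was called.

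ASNS (ENSG00000070669.17, chr7:97851677-97872542, minus strand) had 1.22, 0.683, 0.695 and 0.463 CPM in MmC-/GDF11- and 0.932, 1.11, 1.37 and 1.97 CPM in MmC+/GDF11-. Replicate 1 of the young group lay among the senescent libraries, and the other young libraries lay below them all. The log2 fold change of 0.82 (SE 0.322, edgeR adjusted p = 0.0481) was just past the threshold. With GDF11 the levels were 1.42, 0.778, 0.652 and 0.558 CPM without MmC and 0.943, 1.30, 1.18 and 1.25 CPM after it, and the log2 fold change of 0.46 (SE 0.322, edgeR adjusted p = 0.253) was not called. The call without GDF11 was lost when 1 library was left out, for replicates 2, 3 and 4 of MmC-/GDF11- (edgeR adjusted p = 0.105, 0.100 and 0.133) and for replicates 3 and 4 of MmC+/GDF11- (0.0841 and 0.169). Without replicate 1 of MmC-/GDF11+ the comparison with GDF11 was called (log2 fold change 0.84, edgeR adjusted p = 0.0392). Leaving a replicate number out of every group gave log2 fold changes between 0.41 (without replicate 4) and 1.28 (without replicate 1) in the absence of GDF11, and between 0.29 and 0.91 in its presence. Of ASNS's exonic bases 49.3% are shared with the overlapping gene ENSG00000284707 on the same strand, whose median was 0.461 CPM, and the counting could split reads between them or drop them. The value is therefore uncertain beyond its replicate error.

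HSPA5 (ENSG00000044574.9, chr9:125234853-125241382, minus strand) encodes BiP, the main HSP70 chaperone of the ER. It had 984, 1148, 1050 and 1001 CPM in MmC-/GDF11- and 1190, 1513, 1353 and 1498 CPM in MmC+/GDF11-. The groups did not overlap, although replicate 1 of the senescent group lay close to the highest young library. The log2 fold change was 0.41 (SE 0.114, edgeR adjusted p = 0.00792). With GDF11 the levels were 937, 1175, 1008 and 1048 CPM and 1191, 1345, 1388 and 1548 CPM, again without overlap, and the log2 fold change was 0.39 (SE 0.114, edgeR adjusted p = 0.00984). Without replicate 3 or 4 of every group the log2 fold change was 0.43 and 0.36 in the absence of GDF11 (edgeR adjusted p = 0.0573 and 0.0531) and 0.39 and 0.35 in its presence (0.0829 and 0.0584), so that the fold hardly moved while the calls were lost. Of HSPA5's words of 31 bases, 22.9% occur elsewhere on the main chromosomes.

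DNAJB9 (ENSG00000128590.5, chr7:108569867-108574850, plus strand), an ER-resident cochaperone of BiP that restrains IRE1, had the largest fold change of the 10 genes after MmC. It had 21.5, 17.8, 16.6 and 14.2 CPM in MmC-/GDF11- and 46.8, 64.2, 66.3 and 67.2 CPM in MmC+/GDF11-. The lowest senescent library lay above the highest young one by more than the whole range of the young group. The means were 17.5 ± 3.06 and 61.1 ± 9.64 CPM (SD, n = 4), or a log2 fold change of 1.80 (SE 0.168, edgeR adjusted p = 7.41e-07). With GDF11 the 4 libraries had 23.8, 20.1, 19.4 and 15.6 CPM without MmC and 47.1, 67.8, 72.1 and 61.9 CPM after it. The gap between the groups was as plain, with a log2 fold change of 1.66 (SE 0.167, edgeR adjusted p = 1.68e-06).

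HERPUD1 (ENSG00000051108.15, chr16:56932142-56944864, plus strand), a membrane protein of ER-associated degradation, and XBP1 (ENSG00000100219.16, chr22:28794555-28800597, minus strand), the transcription factor spliced by IRE1, were not called. HERPUD1 had 64.5 to 94.2 CPM in MmC-/GDF11- and 89.6 to 105 CPM in MmC+/GDF11-, a log2 fold change of 0.22 (SE 0.108, edgeR adjusted p = 0.112), and 0.17 with GDF11 (SE 0.108, edgeR adjusted p = 0.219). XBP1 had 130 to 204 CPM in MmC-/GDF11- and 161 to 246 CPM in MmC+/GDF11-. Its log2 fold change was 0.26 (SE 0.173, edgeR adjusted p = 0.225) with a 95% interval of -0.10 to 0.63, and 0.17 with GDF11 (SE 0.173, edgeR adjusted p = 0.434). The groups overlapped for both genes in both comparisons, with replicate 4 the lowest young library and replicate 1 the lowest senescent one. Without replicate 1 of every group HERPUD1 was called higher in the absence of GDF11 (log2 fold change 0.31, edgeR adjusted p = 0.0359), and XBP1 was not (log2 fold change 0.39, edgeR adjusted p = 0.0853). Leaving out replicate 2, 3 or 4 instead gave 0.26, 0.24 and 0.09 for HERPUD1 and 0.26, 0.26 and 0.17 for XBP1, none of them called.

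**Figure D2:**
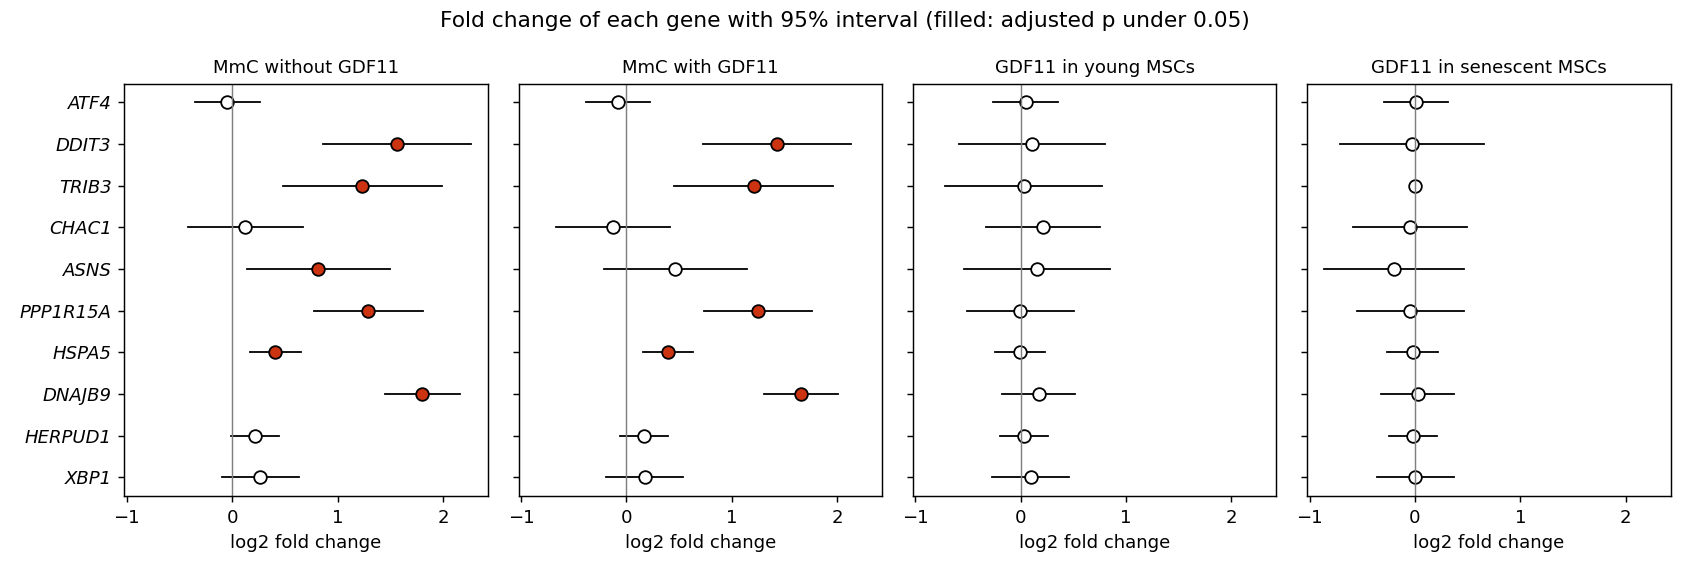
Log2 fold change (horizontal axis) of each of the 10 genes in the 4 pairwise comparisons, with 95% intervals from the edgeR fit; filled points have an adjusted p under 0.05. The filled points are the 6 genes of MmC without GDF11 and the 5 of MmC with GDF11, none is filled for GDF11, and TRIB3 has no interval for GDF11 in senescent MSCs because its estimate there is 0 and the SE cannot be computed from it.

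GDF11 was compared with no GDF11 separately in young and in senescent MSCs, to see whether the cytokine moved the stress response genes in either state. In young MSCs 0 of the 10 genes were called, and the log2 fold changes lay between -0.01 and 0.21. The largest was that of CHAC1, at 0.21 with a 95% interval of -0.33 to 0.75. In senescent MSCs 0 of the 10 were called, with log2 fold changes from -0.20 for ASNS to 0.03 for DNAJB9. Over all genes edgeR called 0% in young and 0% in senescent MSCs, and 226 and 96 genes had an unadjusted p under 0.05, none of them among the 10. Both counts are below the share of 0.05 that chance alone would give where nothing differs. With the replicate number as a block within each MmC arm the counts were 1444 in young MSCs, above that share, and 246 in senescent MSCs, still below it. For young MSCs the fit without the number was thus conservative. For senescent MSCs the block did not bring the count up to that share, and why was not tested. The few low p-values of the fit without the number cannot be read as no effect. DESeq2 called 1 gene in young and 0 in senescent MSCs (197 and 62 at an unadjusted p under 0.05), and limma-voom called 0 and 0 (195 and 94). The groups with and without GDF11 overlapped for all 10 genes in both states, beside 0.89% of all genes without overlap in young and 0.503% in senescent MSCs.

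The precision differed between genes. For HSPA5 the 95% interval of the GDF11 effect ran from 0.843-fold to 1.18-fold in young and from 0.834-fold to 1.16-fold in senescent MSCs, whereas for DDIT3 it ran from 0.667-fold to 1.74-fold and from 0.610-fold to 1.58-fold. An effect of GDF11 on DDIT3 within these bounds could not be told from none with 4 libraries a group in this fit. The fit has no term for the replicate number. With the number as a block within each MmC arm, DDIT3 in senescent MSCs had a log2 fold change of -0.01 (SE 0.0927). Its ratios of MmC+/GDF11+ to MmC+/GDF11- within the same number ran from 0.955 to 1.05. In that block fit edgeR called 0 genes for GDF11 in senescent MSCs. Within the same replicate number the ratio of MmC-/GDF11+ to MmC-/GDF11- was above 1 in 4 of 4 numbers for DNAJB9 (1.10 to 1.17), CHAC1 (1.02 to 1.45) and XBP1 (1.01 to 1.10). With the replicate number as a block within each MmC arm, edgeR called 0 genes for GDF11 in young MSCs, while 1444 genes had an unadjusted p under 0.05, among them DNAJB9 (0.00660) and CHAC1 (0.0138), each with an adjusted p of 0.622 in that edgeR fit. The log2 fold changes there were 0.17 for DNAJB9 and 0.24 for CHAC1. In this comparison the numbers were not taken to pair the libraries, since the deviations of 1 pair correlated at only 0.0982. The choice rests on that lowest pair. The other pairs correlated at 0.264 to 0.504, against 0.113 to 0.368 for MmC without GDF11, where the numbers were taken as pairs.

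The interaction of MmC and GDF11, which asks whether the MmC effect differed with GDF11, was called for 0 of the 10 genes and for 0% of all genes in edgeR. The unadjusted p was under 0.05 for 172 genes, again fewer than chance alone would give, and none of them was among the 10. DESeq2 and limma-voom also called 0 genes (137 and 147 at an unadjusted p under 0.05). The interaction terms were below 0 for 10 of the 10 genes, from -0.02 for HSPA5 to -0.36 for ASNS and -0.26 for CHAC1 on the log2 scale. Their median was -0.07, beside -0.004 over all genes, and the share of all genes below 0 was not taken. Since the 10 genes mostly varied in the same direction within groups, their signs are not separate observations. The 95% interval of the ASNS term was -1.32 to 0.61. With the block within each arm edgeR called 0 genes, and 645 had an unadjusted p under 0.05, still fewer than chance alone would give. CHAC1 was among them (log2 term -0.27, unadjusted p = 0.0410 in that edgeR fit). ASNS passed the threshold without GDF11 and not with it, and this test did not show the effects to differ.

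The levels of the 10 genes differed by replicate number. In MmC+/GDF11- and in MmC+/GDF11+, replicate 1 was the lowest of the 4 libraries for 10 of the 10 genes. In the young groups the order differed, with replicate 1 the highest for 5 genes in MmC-/GDF11- and for 6 in MmC-/GDF11+, and replicate 4 the lowest for 9 and 7. Over all tested genes, where an even share would be 50%, replicate 1 was the highest or the lowest of its group for 61.9% in MmC-/GDF11- (31.1% to 55.2% for the other numbers). In MmC-/GDF11+ it was so for 55.7%, close to the 54.5% of replicate 4. In the senescent groups replicate 1 stood farther apart, with 70.3% in MmC+/GDF11- (27.6% to 51.2% for the others) and 74.2% in MmC+/GDF11+ (34.8% to 53.1%).

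Ratios within a replicate number show the same spread gene by gene. They are descriptions, and with GDF11 the libraries set side by side share a number that was not taken to pair them. Without GDF11, the MmC+ level was above the MmC- level for 4 of the 10 genes in replicate 1, 9 in replicate 2, 10 in replicate 3 and 10 in replicate 4, and the median ratio of the 10 genes was 0.922, 1.47, 1.68 and 2.67. With GDF11 the counts were 4, 9, 9 and 10 and the medians 0.914, 1.41, 1.59 and 1.895. The genes above 1 in replicate 1 were DDIT3, PPP1R15A, HSPA5 and DNAJB9, the 4 whose groups did not overlap. For these a ratio above 1 in every number follows from the lack of overlap. DDIT3 ranged from 1.06 in replicate 1 to 5.91 in replicate 4 without GDF11, TRIB3 from 0.736 to 4.26, and CHAC1 from 0.509 to 1.83. HSPA5 varied least, from 1.21 to 1.50 without GDF11 and from 1.14 to 1.48 with it. DNAJB9 was at least 2.18 in every number without GDF11 and at least 1.98 with it.

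**Figure D3:**
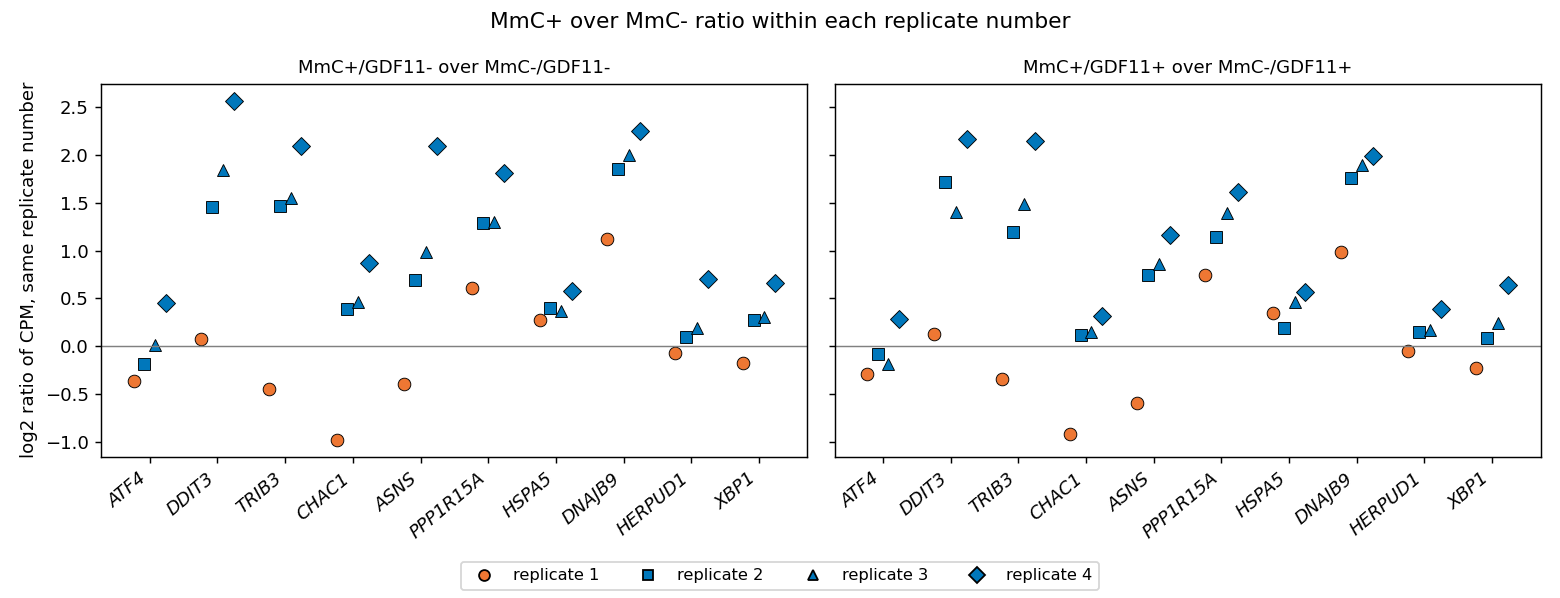
Log2 ratio of CPM between the MmC+ and MmC- library of the same replicate number (vertical axis) for each gene, without GDF11 on the left and with GDF11 on the right. Replicate 1 (circles) is below 0 for 6 of the 10 genes on each side, and replicate 4 (diamonds) is above 0 for all 10.

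Leaving replicate 1 out of every group gave 8 called genes of 10 without GDF11 (CHAC1 and HERPUD1 in addition) and 6 with GDF11 (ASNS in addition), all higher. Under the same setting the called share of all genes was 51.7% and 52.6% of 19338. The log2 fold change without GDF11 was then 1.96 for DDIT3, 1.69 for TRIB3, 2.03 for DNAJB9 and 1.44 for PPP1R15A, and for ATF4 it was 0.06 (edgeR adjusted p = 0.775). Leaving out replicate 4 instead gave lower values for all of these genes. They were 1.20 for DDIT3, 0.97 for TRIB3, 1.68 for DNAJB9, 1.14 for PPP1R15A and -0.16 for ATF4.

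Within groups the 10 genes mostly varied in the same direction. After the group means were taken off, Pearson's r over the 16 libraries was above 0 for 45 of 45 gene pairs and above 0.5 for 36, with a median of 0.699. Over all pairs of the 19103 tested genes r was above 0 for 50% and above 0.5 for 12.9%, and under -0.5 for 12.7%. DDIT3 with TRIB3 had the highest value (0.927), followed by ATF4 with HERPUD1 (0.919), TRIB3 with DNAJB9 (0.906), HSPA5 with PPP1R15A (0.869) and CHAC1 with ASNS (0.862). HSPA5 with ASNS had the lowest (0.0673). For ATF4, whose group means hardly differed, r ran from 0.196 with HSPA5 through 0.448 with PPP1R15A, 0.474 with DDIT3 and 0.557 with TRIB3 to the value with HERPUD1. These values are descriptions over libraries that share their replicate numbers, their run and the position of replicate 1. The spread within groups was largest for TRIB3, with an SD of 0.584 on the log2 scale, and DDIT3 (0.527), and smallest for HSPA5 (0.140) and HERPUD1 (0.154).

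**Figure D4:**
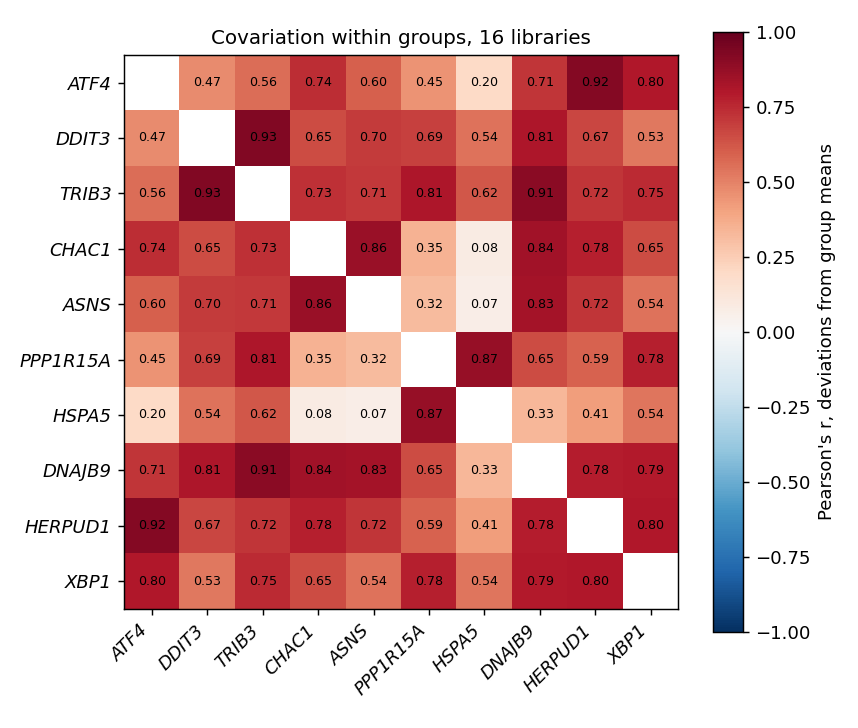
Pearson's r between each pair of the 10 genes (rows and columns) over the 16 libraries after removal of the group means, on a colour scale from -1 to 1. All 45 pairs are above 0, and HSPA5 has its lowest values with ASNS and CHAC1 and its highest with PPP1R15A.

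Over the 16 libraries without removal of group means, the protein-coding genes most alike in log2 CPM to each of the 10 were taken by Pearson's r. For ATF4 these were the seryl-tRNA synthetase SARS1 (0.909) and the translation factor EIF1 (0.898). DDIT3 was closest to RND1 (0.984) and FGF7 (0.980), and TRIB3 to the kinase MKNK2 (0.985) and the amino acid transporter subunit SLC3A2 (0.979). CHAC1 was closest to the amino acid transporters SLC1A4 (0.905) and SLC7A5 (0.905), and ASNS to DCN (0.931) and ULBP1 (0.928). HSPA5 paired with TMBIM6 (0.972) and TMEM179B (0.970), XBP1 with RHOB (0.908) and PYGB (0.896), and HERPUD1 with HBP1 (0.907) and C19orf38 (0.900). DNAJB9 was closest to PTGES (0.992) and TNFAIP6 (0.991), and PPP1R15A to CHMP1B (0.985) and FOSB (0.984). The libraries fall into MmC- and MmC+ groups, and these r values hold the distance between the groups as well as the spread within them.

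The wider pathways were read from 9 lists with 146 genes in all, of which 140 were tested. After MmC without GDF11, 52 of the 140 were called higher and 15 lower with a median log2 fold change of 0.18, and with GDF11 52 were higher and 17 lower with a median of 0.13, beside the medians of -0.01 over all genes. The called share of the lists, 47.9% without and 49.3% with GDF11, was close to the 45.3% and 46.7% of all genes, of which about as many were lower as higher. For GDF11, 0 of the 140 were called in either state. Without GDF11 the share called after MmC was close to that of all genes for the sensor, translocation and amino acid lists. It was above that share for the chaperone, degradation, ATF4-CHOP and mitochondrial lists, and below it for the synthetase and heat shock lists. The lists are short, and these departures were not tested.

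Among 11 tested stress sensors and eIF2α kinases, 5 were called higher and 0 lower without GDF11 (median log2 fold change 0.27), and 5 higher and 1 lower with it. ERN1, which encodes the sensor IRE1, went from 9.05 ± 1.56 to 48.7 ± 15.2 CPM (SD, n = 4) without GDF11, for a log2 fold change of 2.43 (SE 0.272, edgeR adjusted p = 6.31e-06). The interferon-induced eIF2α kinase EIF2AK2 rose by a log2 fold change of 0.74 (SE 0.163, edgeR adjusted p = 0.00163). EIF2AK3, which encodes PERK, and ATF6, both named after their values were seen, rose by 0.68 and 0.48 (edgeR adjusted p = 0.000421 and 0.00409). With GDF11 the log2 fold change was 2.46 for ERN1 and 0.76 for EIF2AK2.

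The 24 ER chaperones and folding enzymes had 11 genes higher and 2 lower without GDF11 (median 0.30) and 13 higher and 2 lower with it. The oxidase ERO1B went from 1.53 ± 0.312 to 3.56 ± 0.306 CPM (log2 fold change 1.22, SE 0.156, edgeR adjusted p = 1.66e-05), and the BiP nucleotide exchange factor SIL1 rose by 0.74. CRELD2 and SDF2L1, known ER stress-induced genes, fell by 0.55 and 0.49 on the log2 scale (edgeR adjusted p = 0.00245 and 0.0154). Of 16 tested genes of ER-associated degradation, 11 were higher and 1 lower in each comparison, with a median log2 fold change of 0.42 without GDF11. They were led by the lectin ERLEC1 (0.96) and the mannosidase-like EDEM3 (0.85), while the ubiquitin-conjugating enzyme UBE2J1 fell by 0.30. Of 16 genes of ER translocation and the secretory pathway, 6 were higher and 1 lower in each comparison (median 0.19 without GDF11), a called share close to that of all genes. SRP54 of the signal recognition particle rose by 0.49 and the translocon component SEC63 by 0.39, and the translocon-associated SSR2 fell by 0.37.

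The 19 tested ATF4 and CHOP targets outside the 10 genes had 11 higher and 1 lower without GDF11 (median 0.53), and 12 higher and 0 lower with it. GDF15, a stress cytokine, went from 13.3 ± 6.20 to 412 ± 129 CPM (SD, n = 4), or a log2 fold change of 4.95 (SE 0.421, edgeR adjusted p = 5.48e-07), and with GDF11 the log2 fold change was 4.62. The proapoptotic BCL2L11 rose by 1.55 and the repressor JDP2 fell by 0.67 (edgeR adjusted p = 0.0429), a call not made with GDF11 (edgeR adjusted p = 0.0516). GDF15, SESN2, TNFRSF10B and BBC3 of this list are also known targets of p53, the factor activated by DNA damage, so that the list is not specific to ATF4. SESN2 and TNFRSF10B, named after their values were seen, rose by 1.43 and 1.49 on the log2 scale, and BBC3 had 0.52 (edgeR adjusted p = 0.131).

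The 21 tested genes of amino acid synthesis and transport were split, with 5 higher and 4 lower without GDF11 (median -0.08) and 3 higher and 5 lower with it. SLC3A2, the heavy chain of several amino acid transporters, rose by 1.03 (SE 0.323, edgeR adjusted p = 0.0168), and CTH of cysteine synthesis by 0.87 (edgeR adjusted p = 0.0204), but CTH was not called with GDF11 (edgeR adjusted p = 0.0967). The glutamine transporter SLC1A5 fell by 0.59 and PSPH of serine synthesis fell by 0.51. Without replicate 1 of every group 7 genes of this list were higher and 3 lower in each comparison, and the median turned to 0.18 without and 0.11 with GDF11. Of the 14 cytosolic aminoacyl-tRNA synthetase genes 1 was higher (NARS1, 0.30, edgeR adjusted p = 0.0196) and 0 lower without GDF11, and 0 higher and 1 lower with it. The lower one was VARS1 (log2 fold change -4.20), named after its values were seen, whose groups overlapped and whose exonic words of 31 bases all occur on alternate contigs. Without replicate 1 these counts were 2 and 0, and 3 and 1.

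Of 9 mitochondrial stress relay and chaperone genes, 1 was higher, 5 were lower and 3 were not called in each comparison (median -0.45 without GDF11), beside 22.4% of all genes lower without GDF11 and 23.3% with it. The protease OMA1, which starts the relay from mitochondria to eIF2α, fell by 0.78 (edgeR adjusted p = 0.00325) and the matrix protease CLPP fell by 0.51, while the mitochondrial HSP70 gene HSPA9 rose by 0.68. The cytosolic heat shock list had 1 of 10 tested genes higher and 1 lower in each comparison. HSPH1 rose by 0.58 and HSP90AA1 fell by 0.50, from 908 ± 120 to 641 ± 32.2 CPM (SD, n = 4). Without replicate 1 the heat shock counts were 1 higher and 3 lower. ATF6B, DERL3, FGF21, SLC7A3, HSPA1A and HSPA1B had too few counts to be tested. Nearly all words of the exons of ATF6B, DERL3, HSPA1A and HSPA1B, and those of VARS1 and CARS1 among the synthetases, occur on alternate contigs too (94.8% to 100%), and for these a low count cannot be read as low expression.

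**Figure D5:**
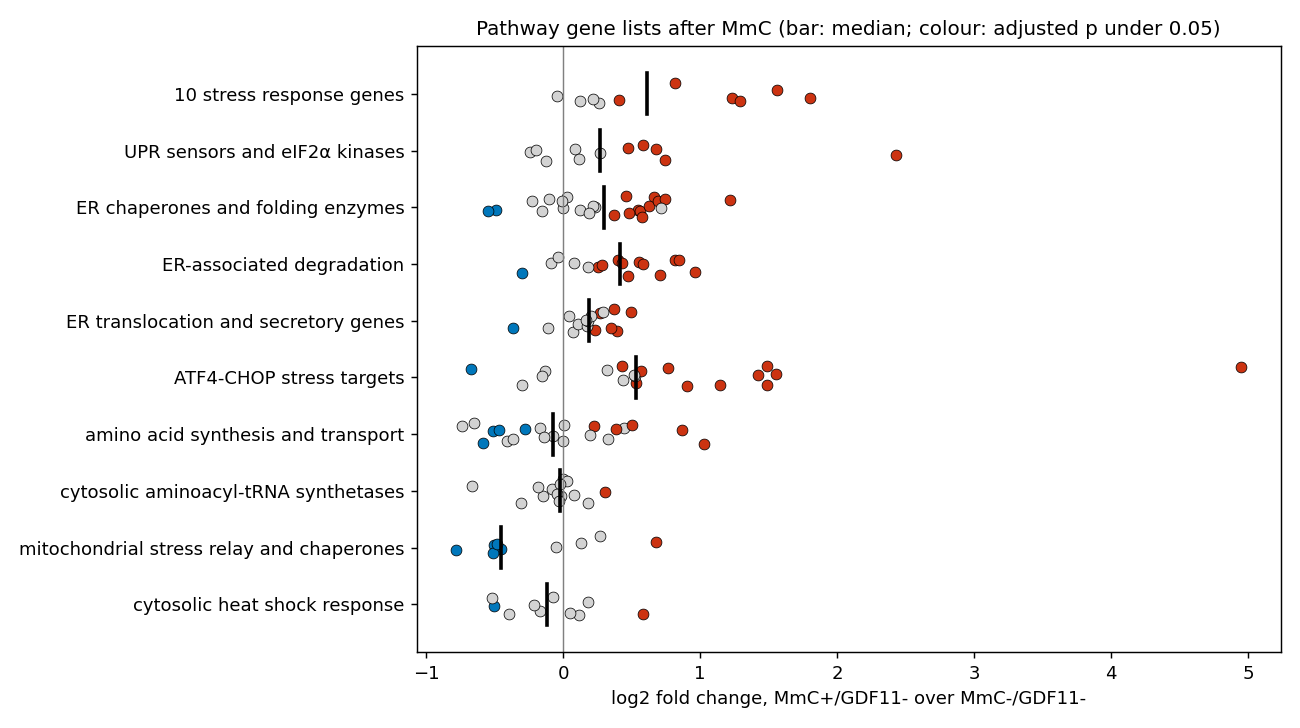
Log2 fold change for MmC without GDF11 (horizontal axis) of every tested gene, with the 10 stress response genes on top and the 9 pathway lists below; red and blue points are called higher and lower, grey points are not called, and bars are medians. GDF15 at 4.95 and ERN1 at 2.43 lie farthest out, the degradation and ATF4-CHOP lists have the highest list medians at 0.42 and 0.53, and the mitochondrial list has the lowest at -0.45.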

How the data were processed

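The authors aligned paired reads of poly(A) RNA to GRCh38/hg38 with HISAT2 2.2.1 and counted them on GENCODE V38 genes with featureCounts 2.0.1, versions named in the submitters' processing notes, and deposited raw counts per gene. Strand, read-pair and multiple-alignment settings are not given in the sources used here. Identifiers were matched to GENCODE v44 for symbols, positions and exonic lengths (60463 matched, 186 not).

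From the counts, genes were kept by filterByExpr (minimum count 10, minimum total 15), scaled by TMM and fitted with edgeR 4.0.16 in R 4.3.3 (robust quasi-likelihood, all 16 libraries, 1 mean per group, no term for replicate number). MmC was contrasted in each GDF11 arm, GDF11 in each MmC arm, and both agents by their interaction. The SE was the log2 fold change over the square root of F. The log2 CPM used for r had a prior count of 2. The steps were tested on simulated data. The simulated libraries held no effect of the replicate number, so that this test does not cover that part of the data. Alternatives were RLE scaling, no filter, only the libraries compared, a replicate block, DESeq2 1.42.0, limma-voom (limma 3.58.1), and leaving out libraries or replicate numbers. The block with replicate 1 left out, and the list counts without replicate 1, were added after seeing the data.

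The sources do not say what the replicate numbers mark. Across genes, the deviations of libraries with equal numbers correlated at 0.113 to 0.368 for MmC without GDF11 and 0.448 to 0.818 for GDF11 in senescent MSCs, and equal numbers were treated as pairs here. The printed SEs and p-values nevertheless come from the fit with no term for the number, and the block is given in the closing section. At least 1 pair was below 0.1 for MmC with GDF11 (0.0293 to 0.311) and GDF11 in young MSCs (0.0982 to 0.504), which were not.

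The 10 genes and the lists were chosen with earlier results of these data known. From each list the text names the 2 highest and 2 lowest genes for MmC without GDF11 that passed an adjusted p of 0.05 and averaged 1 or more in log2 CPM, and for each of the 10 genes the 2 protein-coding genes with the highest r. Sequence shared with other loci was measured in words of 31 bases of each gene's exons over hg38 with its 261 alternate contigs.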

Additional observations from a re-analysis of the deposited data

Results flagged for a closer look

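In 40 combinations of gene and group, 3 had a library far from the other 3 by Dixon's criterion for 4 samples, on the gap over the range, where chance alone gives about 1 in 20. CHAC1 in MmC-/GDF11+ had 19.9 CPM in replicate 1, with the next library at 11.6 CPM and the lowest at 10.1 CPM (gap over range 0.841). CHAC1 in MmC+/GDF11+ had 10.5 CPM in replicate 1, with the others between 12.5 and 12.6 CPM (gap over range 0.951). DNAJB9 in MmC+/GDF11- had 46.8 CPM in replicate 1, with the others between 64.2 and 67.2 CPM (gap over range 0.853). All 3 libraries carry replicate number 1, and whether one cause is common to them was not tested.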

How the results depend on the processing

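For the 10 genes, no log2 fold change that was called reversed under any alternative run, and no call of the GDF11 comparisons or the interaction was gained or lost. Genes called after MmC without GDF11 ranged from 7602 to 8793 when 1 library was left out and from 5490 (without replicate 3 of every group) to 10004 (without replicate 1), and with GDF11 from 7742 to 9030 and from 5505 to 10164. Of the 10 genes, 3 to 8 were called without GDF11 and 3 to 6 with it under these settings, the lowest without replicate 3 or 4. The genes gained or lost were ASNS, TRIB3, HSPA5, CHAC1 and HERPUD1, and the cause was not tested. GDF11 in young MSCs called 0 to 1 genes when libraries were left out and 1 in DESeq2, none among the 10. With the replicate block 11066 genes were called without GDF11 and 11267 with it, and 6 and 5 of the 10 genes, the block changing no call of the 10. Without GDF11 the edgeR adjusted p rose under the block to 0.00792 for DDIT3 (SE 0.390), 0.0384 for TRIB3 (SE 0.431) and 3.14e-06 for DNAJB9 (SE 0.177). It fell to 0.0379 for ASNS (SE 0.333), 0.000666 for HSPA5 (SE 0.0820) and 1.86e-05 for PPP1R15A (SE 0.158). With the replicate block and number 1 left out of every group, chosen after seeing the data, 9 and 8 of the 10 genes were called (XBP1, HERPUD1 and CHAC1 in addition without GDF11; ASNS, XBP1 and HERPUD1 with it). With only the libraries compared in the fit, ASNS was not called at a log2 fold change of 0.84 against 0.82 (edgeR adjusted p = 0.0624). ASNS had the fewest counts of the 10 genes, 48 to 173 per library.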
